A study of Homo sapiens with 6 samples.

Results

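STEAP2 encodes a metalloreductase, a membrane protein that passes electrons to iron and copper ions, and its expression is high in prostate epithelium. The data are AGO2 HITS-CLIP peaks, stretches of RNA that ultraviolet light had crosslinked to AGO2. AGO2 is an Argonaute protein, which is loaded with a microRNA and guided by it to target RNAs. Every peak that the deposited table names for STEAP2 was taken, which gave 25 of its 7772 peaks. STEAP2 was chosen by its number of peaks, the highest of any gene in this table, so that number is the choice and not a result. The table's scores, site listings and gene names were also known when the gene was chosen, and none of them is tested here.

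The cells were 22RV1, an established human prostate cancer line, transfected in suspension with 20 nM of a miR-194 mimic (3 libraries) or 20 nM of a negative control (3 libraries). All were irradiated 24 h later, and AGO2 was precipitated with the antibody 4F9. The table merges its peaks into 1 list with 1 score per peak, a number the authors gave without a stated meaning, and it names no library. Binding in mimic and control cells could therefore not be compared, no value is given per replicate, and the depth per library is unknown. How much STEAP2 RNA the cells held is not given in the data used here. A score therefore cannot be separated from the abundance of the transcript.

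A microRNA directs AGO2 to a transcript mainly through its seed, bases 2 to 8, which pair with a complementary stretch, most often in the 3' UTR, the part of the messenger RNA after the stop codon. A match to the whole seed that is followed by an A is called an 8mer. A 7mer-A1 lacks the pair to base 8 but keeps the A, and a 6mer pairs with bases 2 to 7 alone. The STEAP proteins sit in the plasma membrane and in endosomes, where reduction lets iron and copper pass through metal ion transporters.

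The following sequences carry the result described below. The first is mature miR-194-5p (RefSeq, GRCh38.p14), with its seed in capitals. The other 3 are 30-base stretches of the STEAP2 3' UTR, each ending opposite base 1 of the microRNA, with the seed match in capitals. They were read from the GENCODE 29 transcript that corresponds to NM_001040665. On GRCh38, plus strand, they cover chr7:90233281-90233310, chr7:90237227-90237256 and chr7:90235149-90235178, in the order shown. The first pair of stretches lay in AGO2 peaks, and the 8mer did not.
miR-194-5p: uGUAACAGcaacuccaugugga
7mer-A1 in the peak scoring 185: atgaaagattttattctttattgTGTTACA
7mer-A1 in the peak scoring 108: ttaagccattgtaaatctgggtgTGTTACA
8mer outside all peaks: gatactctaaataaaaataccaCTGTTACA

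Of the 25 STEAP2 peaks, 23 lay in the 3' UTR and 2 in a coding exon. All were on the plus strand of chromosome 7, between 89856502 and 89866853 on hg19, the genome build of the table. Their names carry consecutive numbers, so no other plus-strand peak of the list stood between them. The table assigned the coding peaks to exon 4 of 7 of NM_001040666. It assigned 19 of the 3' UTR peaks to the last exon (6 of 6) of NM_001040665 and the last 4 to the last exon (6 of 6) of NM_001244946.

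The peaks could be placed along the 3' UTR through their listed sites. The bases TTGTGTTACA and GTGTGTTACA, listed in a STEAP2 peak each, occur at 1 place each in the 4970-nt 3' UTR of NM_001040665 (GENCODE 29). They were 3946 nt apart on hg19 and 3946 nt apart in the transcript. Positions below count from the first base after the stop codon. They rest on these matched sites and can be off by 1 nt, because no source used here gives the counting convention of the peak starts.

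The 3' UTR peaks formed 3 runs, in which neighbours were at most 14 nt apart. The first run held 17 peaks from position 568 to 2351 and covered 96.1% of its 1784 nt, with gaps of 2 to 12 nt (median 3). A stretch of 1274 nt without a peak followed. The second run was a pair of weak peaks from 3626 to 3731, and the last run, after another 612 nt, held 4 peaks from 4344 to 4915. No peak lay in the first 567 nt or the last 55 nt of the UTR. Together the peaks covered 2359 nt, or 47.5% of it. The covered bases were 60.4% A or U, against 72.5% in the uncovered 2611 nt.

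**Figure D1:**
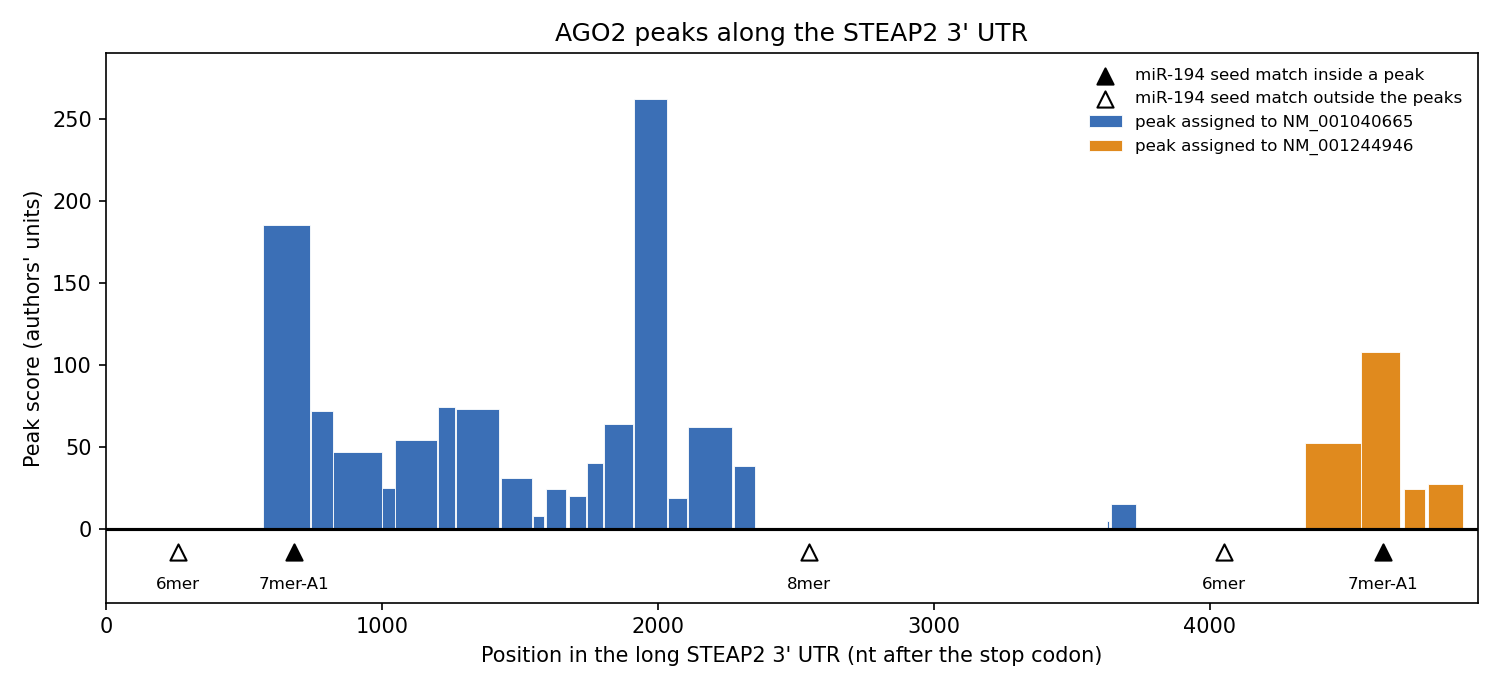
Score of each of the 23 STEAP2 3' UTR peaks (y axis, authors' units) against its place in the long 3' UTR (x axis, nt after the stop codon); each bar is 1 peak, drawn to its length and coloured by the RefSeq transcript that the table assigned. Triangles mark the 5 matches to bases 2 to 7 of the miR-194 seed: both 7mer-A1 matches lie in peaks scoring 185 and 108, and the 8mer near position 2547 lies in the 1274-nt stretch without a peak.

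The highest STEAP2 peak lay in the coding exon and not in the 3' UTR. It scored 455 over 272 nt (89856533 to 89856804) and ranked 24th of the 7772 peaks and 12th of the 2567 coding exon peaks. It held 25.1% of the summed score of all 25 peaks. The other coding peak, 2 nt before it, scored 26 over 29 nt (89856502 to 89856530). No miR-194 site was listed in either, where 26.0% of coding exon peaks had one. The coding sequences of the 6 STEAP2 transcripts matched by RefSeq accession held no match to TGTTAC, the 6mer of miR-194. The highest STEAP2 signal thus lay on sequence without this 6mer. Exon 4 of NM_001040666 is 528 nt long and occurs with the same ends in all 6 of these transcripts, so the coding peaks do not tell them apart.

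In the 3' UTR the scores ran from 5 to 262, with a median of 40 (interquartile range 24 to 68). The 1768 other 3' UTR peaks of the list had a median of 17 (12 to 34). A score of 15, the median of the whole list, was reached by 21 of the 23 peaks (91.3%), against 60.1% of all 3' UTR peaks. The 2 below it scored 8 and 5, and 5 is the lowest score in the list, shared by 175 peaks. These values belong to 1 transcript region and were known when the gene was chosen, so they describe it only.

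The first run began with its second-highest peak. Its scores, in order from the 5' end, were 185, 72, 47, 25, 54, 74, 73, 31, 8, 24, 20, 40, 64, 262, 19, 62 and 38. The signal was thus highest at the 5' edge and at a narrow place near the 3' end, with a low stretch between positions 1545 and 1737, where peaks scored 8, 24 and 20. This run held 82.6% of the summed 3' UTR score.

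The peak of 262, the highest of the 3' UTR, covered positions 1914 to 2032 (89863852 to 89863970) and had no listed site. It ranked 24th of all 1791 3' UTR peaks. Its neighbours scored 64 and 19, at gaps of 4 and 2 nt. Per nt of length it was also the highest STEAP2 peak, with 2.20 score units per nt, before the large coding peak with 1.67. The 3' UTR peaks with a listed site had 1.10 and 0.78 per nt, and the lowest value was 0.16.

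The second run was the weakest. Its peaks scored 5 over 8 nt and 15 over 92 nt, which is 1.51% of the summed 3' UTR score. The third run scored 52, 108, 24 and 27 in order, so its second peak was higher than the other 3. It held 15.9% of the sum.

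Sites of miR-194 were listed in 2 of the 23 3' UTR peaks (8.70%), where 19.8% of all 3' UTR peaks had a 7mer match and 27.5% had any listed site. Both STEAP2 sites were 7mer-A1 matches. With 2 sites in peaks that share 1 transcript, the lower share is a description and says nothing of a difference. The other 21 peaks carried no listed site.

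Both peaks with a site stood high in their own run. The first, at positions 568 to 736 (89862506 to 89862674), scored 185 and ranked 48th of all 3' UTR peaks. Its 7mer-A1 covered positions 680 to 686, and the middle of the listed site lay 30 nt downstream of the peak centre. The second peak, at 4549 to 4687 (89866487 to 89866625), scored 108 and ranked 94th. Its site covered 4626 to 4632, with the middle of the listed bases 10 nt downstream of the centre. Within the STEAP2 3' UTR these were the next by score after the site-free peak of 262, and the other 20 peaks scored 5 to 74. The 156 3' UTR peaks of the list with a 7mer-A1 as their best site had a median score of 35 (19 to 63.25).

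The longest seed match of the 3' UTR was not in a peak. The UTR held 5 matches to the 6mer TGTTAC on the transcribed strand, of which 2 were the 7mer-A1 matches above. Another was an 8mer at positions 2547 to 2554, in the 1274-nt stretch without a peak and 196 nt from the nearest one. The others were 6mers at 258 to 263, before the first peak, and at 4050 to 4055, between the second and the third run. They were 305 and 289 nt from the nearest peak. The reverse complement of the 6mer occurred at 2 places, and that of the 7mers at none.

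Windows with a 7mer match made up a larger share of this 3' UTR than of annotated 3' UTRs pooled over genes. Either 7mer, TGTTACA or CTGTTAC, which overlap where they form an 8mer, was present in 10.2% of its 169-nt windows and 8.28% of its 139-nt windows, the lengths of the peaks with a site. Over the longest 3' UTRs of 19462 genes the shares were 2.02% and 1.66%. These windows were searched on the transcribed strand only. The STEAP2 shares rest on 3 matches, each counted in many overlapping windows, and the spread between genes was not computed.

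In the 3' UTR, the RefSeq assignments do not separate transcripts for the last 4 peaks. The 643-nt 3' UTR of NM_001244946 starts at position 4342 of the long 3' UTR and is identical to it from there on, apart from 14 nt beyond its end. All 4 peaks of the third run lay in these shared bases, so their reads can come from long or short 3' UTRs. The 19 peaks before them lay outside the short 3' UTR. Accordingly, the 7mer-A1 of the first peak was present in 3 of the 6 matched transcripts, those with the long 3' UTR, and the 7mer-A1 of the third run in all 6.

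Longer STEAP2 peaks had higher scores. Over the 23 3' UTR peaks Spearman's rho between length and score was 0.62, and over all 1791 3' UTR peaks it was 0.52. Peaks of 1 gene share its transcripts, so this is a description. The STEAP2 3' UTR peaks were 8 to 203 nt long, with a median of 92 nt against 75 nt for the other 3' UTR peaks. The peaks with a site, 169 and 139 nt long, were both longer than this median.

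**Figure D2:**
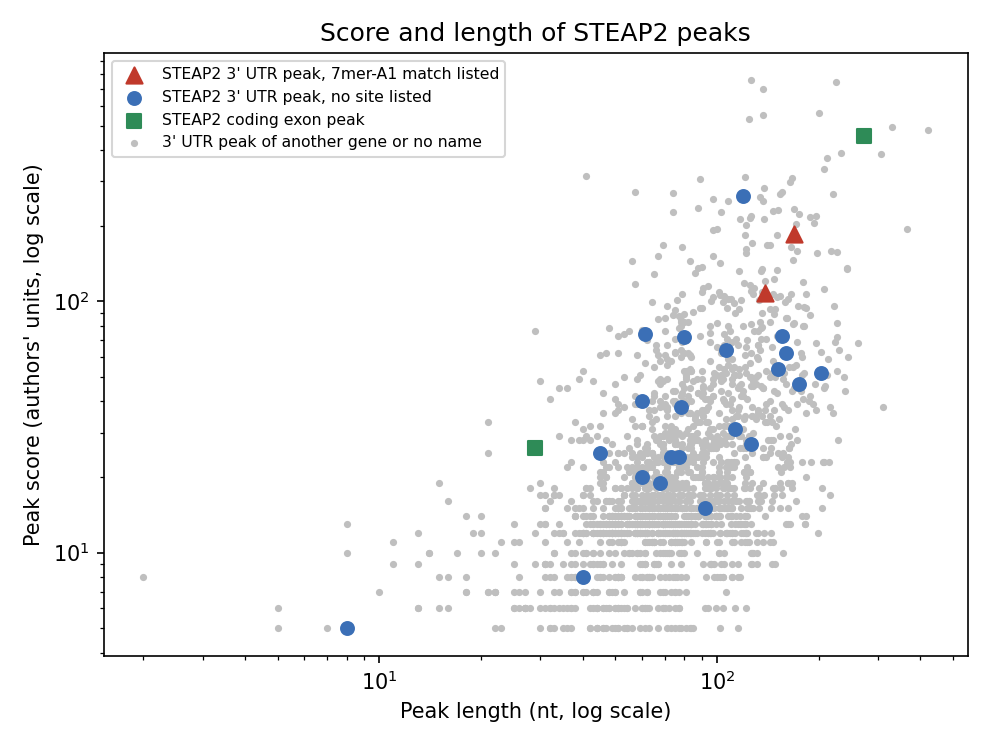
Score (y axis, authors' units, log scale) against length (x axis, nt, log scale) of STEAP2 peaks, one point per peak, over the 1768 other 3' UTR peaks in grey. The coding peak of 455 is also the longest STEAP2 peak, with 272 nt, while the 3' UTR peak of 262 is only 119 nt long and stands above STEAP2 peaks of like length.

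The dense spacing of STEAP2 peaks has counterparts in other genes. Its 22 gaps between neighbouring 3' UTR peaks had a median of 4.5 nt (interquartile range 3 to 7.5), and 20 of them (90.9%) were at most 15 nt. In other genes 604 of 859 gaps (70.3%) were at most 15 nt, with a median of 6 nt (2 to 31.5), and 2 nt was the smallest gap in both. A 3' UTR peak was listed for 910 named genes, of which 498 had 1 only, and 7 had at least 10.

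The genes nearest to STEAP2 by number of 3' UTR peaks were ZBTB10, a zinc finger gene, with 13, and MAGT1, of a magnesium transport and glycosylation function, and the amino acid transporter gene SLC38A2 with 12 each. The STEAP2 peaks summed to a score of 1329, against 1857 for ZBTB10, 642 for MAGT1 and 2443 for SLC38A2. The highest 3' UTR peak held 19.7% of this sum in STEAP2, 40.7% in ZBTB10, 41.6% in MAGT1 and 30.5% in SLC38A2. In ZBTB10 and MAGT1 that peak held a 7mer match, with scores of 756 and 267, whereas in STEAP2 and SLC38A2 it did not. The number of runs was 3 in STEAP2 and ZBTB10, and 2 in MAGT1 and SLC38A2. Against the median gap of 4.5 nt in STEAP2, ZBTB10 and SLC38A2 had 2 nt and MAGT1 had 7 nt. Gaps of at most 15 nt were 9 of 12 in ZBTB10, 9 of 11 in MAGT1 and 10 of 11 in SLC38A2.

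**Figure D3:**
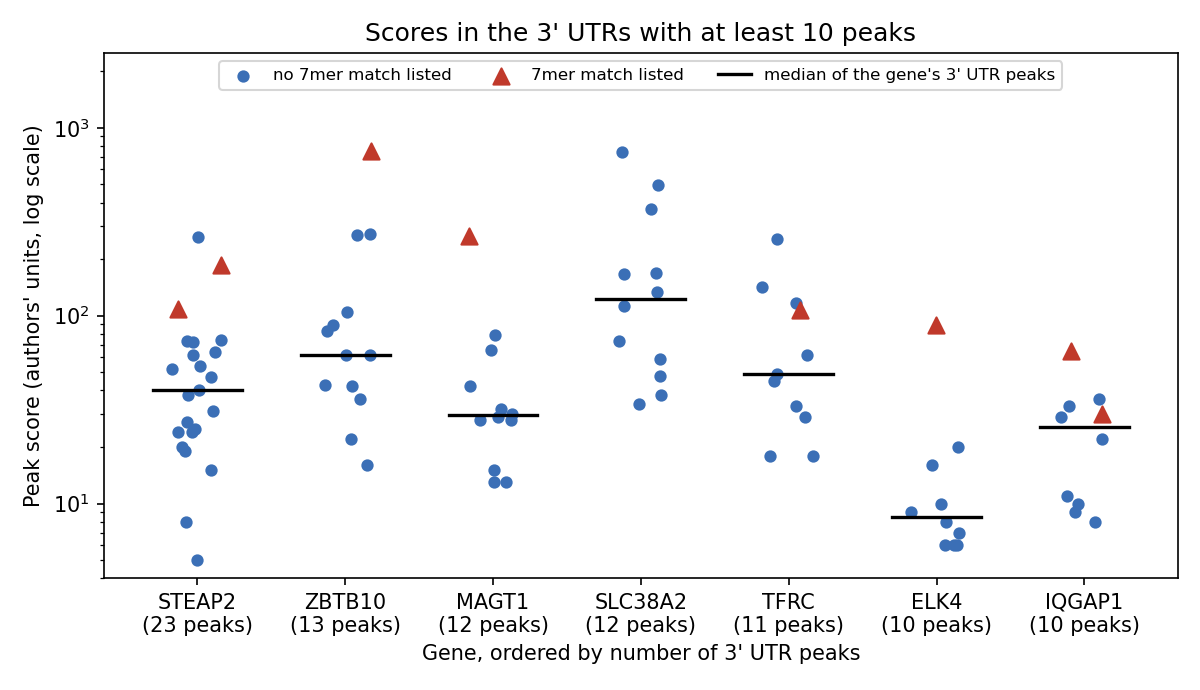
Score of each 3' UTR peak (y axis, authors' units, log scale) in the 7 genes with at least 10 such peaks (x axis, by number of peaks); triangles are peaks with a listed miR-194 7mer match, and lines are medians over the peaks of a gene. In STEAP2 the triangles stand at 185 and 108, under the site-free peak of 262; the STEAP2 median is 40.

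Other genes of the STEAP family had no peak, while TFRC, SLC11A2 and ATP7A were among the iron and copper genes that had one. Of 34 genes on a list of the family and of iron and copper handling, 9 had a peak (26.5%), where 17.7% of 19462 coding genes with an annotated 3' UTR had one under the same symbol. Of these 9 genes, 2 had a peak with a miR-194 7mer match (22.2%), close to the 23.6% of all named genes with a peak. STEAP1, STEAP1B, STEAP3 and STEAP4 were among the 25 without a peak. The absence of a peak does not show that a gene was silent.

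TFRC, the transferrin receptor that brings iron into endosomes, had the most peaks of the list. It had 12, of which 11 were in the 3' UTR and scored 18 to 255, with a median of 49. The peak of 255 held a 6mer, and another of 107 held a 7mer-A1. SLC11A2, the transporter that moves reduced iron across the membrane, had 3 peaks with no listed site. These scored 182 and 64 in coding exons and 9 in an intron. Among copper genes, ATP7A, a copper-exporting ATPase, had 4 coding exon peaks with scores of 55, 26, 23 and 6, of which the first 3 held 7mer matches. The copper transporter genes SLC31A1 and SLC31A2 had low 3' UTR peaks without a site, scoring 13 in SLC31A1 and 10 and 6 in SLC31A2.

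The others on the list with peaks had no listed site. SLC39A14, a zinc and iron importer, had 3 3' UTR peaks scoring 22, 19 and 14. PCBP1 and PCBP2, RNA-binding proteins that also act as iron chaperones, reached 49 and 77, both in coding exons. SLC25A37, the mitochondrial iron importer, had 2 peaks scoring 20 each, in a coding exon and in the 5' UTR before the coding sequence. The 35 peaks of these 9 genes had a median score of 27, against 40 for STEAP2 and 15 for the whole list.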

How the data were processed

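Per the submitters' processing notes, the tools were MACS2, SAMtools, TopHat2 2.0.9, FastQC and cutadapt 1.8.1 and the build was hg19; no order or settings are given. The deposited table gives each peak a start, an end, an annotation, listed target sites and a score, whose scale no source used here gives. The scores were used for ranking and description inside this list alone. There were 0 columns of other samples. Listed sites were classed by their bases on the peak's strand, and peak length was taken as end minus start plus 1. Runs joined peaks at gaps of at most 50 nt. 3' UTR sequences came from GENCODE 29 by RefSeq accession, and no hg19 sequence was used. Python 3.11.15, numpy 2.4.6, pandas 2.3.3, scipy 1.17.1, matplotlib 3.10.9 and ViennaRNA 2.7.2 were used. The gene, the lists and the site analyses were chosen with earlier results of these data known, and no test was made. Genes named for comparison were the next 3 by number of 3' UTR peaks, the members of the iron and copper list with a peak, and STEAP family members.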

Additional observations from a re-analysis of the deposited data

How the results depend on the processing

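No paired analysis was possible because the table holds no value per library. Joining peaks over gaps of at most 50 nt turned the 25 STEAP2 peaks into 4, so their number depends on how closely spaced signal was divided. With 3' UTR peaks alone, or with scores at or above 15, 23 peaks remained. Counting 8mers only gave 0 peaks with a match, and counting 6mers or any listed site gave 2, as for 7mers. The median score of 40 (95% order-statistic interval 25 to 64) was 40 in the 3' UTR and 47 among peaks at or above 15. That interval treats the 25 peaks as independent draws. They are all the listed peaks of the gene, and most adjoin each other, so the interval measures no sampling error. Nor is it the spread of the scores, which had an interquartile range of 24 to 72. The highest peak held 25.1% of the summed score, 19.7% within the 3' UTR (another peak), and 42.9% with scores multiplied by length. The median gap of 4.5 nt was 113.5 nt from centre to centre. A joining distance of 15 nt, chosen after seeing the data, also gave 3 runs. Depth is unknown, and a stretch without a peak may hold signal below the authors' calling threshold.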

Other observations

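The whole long STEAP2 3' UTR, with all its 23 peaks, was searched for matches to other microRNAs. The search used 31 microRNAs that are widely expressed or known in prostate epithelium, chosen from general knowledge after the peaks had been seen; their levels in these cells were not measured here. A match to bases 2 to 8, on the transcribed strand only, was found at 15 places of the long 3' UTR for 11 of the microRNAs. Peaks held 8 of these (53.3%), and they cover 47.5% of the UTR. The 8 fell in 7 peaks, all without a listed miR-194 site.

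Among the first run, miR-141-3p (CAGTGTT), a member of the epithelial miR-200 group, had an 8mer at positions 1388 to 1394 in the peak scoring 73, and another at 3805 to 3811 outside the peaks. The basal epithelial miR-205-5p (ATGAAGG) had an 8mer in the peak scoring 31. An 8mer of miR-19b-3p (TTTGCAC) lay in the peak scoring 47, with a second outside. In the peak scoring 62 there was a match to miR-24-3p (CTGAGCC). In the second run the peak scoring 15 held an 8mer of miR-27b-3p (ACTGTGA). In the last run, the peak scoring 52 held matches to miR-15a-5p (TGCTGCT) and miR-22-3p (GGCAGCT), and the peak scoring 24 at 4702 to 4778 held one to miR-92a-3p (GTGCAAT). The positions given cover bases 2 to 8 and leave out the final A of an 8mer. The highest 3' UTR peak, of 262, held no match to any of the 31.

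Matches outside the peaks were those of miR-23a-3p (AATGTGA) at 2 places, miR-182-5p (TTGCCAA) at 2 and miR-145-5p (AACTGGA) at 1, besides the second ones of miR-141-3p and miR-19b-3p. Of all 92-nt windows in the longest 3' UTRs of 19462 genes, between 0.597% (miR-92a-3p) and 1.48% (miR-15a-5p) held the match of a given one of these 11. Each such match is a description of letters.

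Duplexes of miR-194-5p were predicted with 30-base stretches ending at each of the 5 seed matches. The pairing was not held to the seed, and whether the seed bases paired was not recorded. Energies were -8.0 and -11.3 kcal/mol for the stretches with the 7mer-A1 matches in the peaks of 185 and 108. The stretch with the 8mer outside the peaks had -9.5 kcal/mol. Stretches with the 6mers outside the peaks had -13.2 kcal/mol at position 258, the lowest of the 5, and -10.0 kcal/mol at position 4050. The energies of these stretches thus did not separate matches inside peaks from those outside.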
